A study of Mus musculus with 20 samples.

Results

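Transcript levels were compared between mouse pre-B cell lines that lack both the Artemis nuclease and the ATM kinase and lines that lack Artemis alone, which have ATM. All carry the v-abl oncogene. Treatment lasted 48 hours with STI571 at 3 uM, an inhibitor of the ABL kinase that stops the growth of such lines and lets them express the RAG recombinase. The Artemis- and ATM-deficient group held 2 lines on 4 arrays, and the 2 technical arrays of each line were averaged, so that n was 2. The Artemis-deficient group held 3 samples on 3 arrays. These 7 arrays were chosen by their source labels from the 20 arrays of the series, and all 44200 probe sets of the Affymetrix mouse array were considered. Wild type lines (n = 3), RAG-2-deficient lines (n = 3) and Artemis-deficient lines with a dominant negative IkB (IkB-DN lines, n = 3), all given the same STI571 treatment, place the levels; the wild type and RAG-2-deficient samples also entered the fit, where they share 1 estimate of the spread with the compared groups. The titles of the RAG-2-deficient lines hold the letters Bcl, and the title of wild type replicate 3 holds the letters ATM. In the compared groups, the title of Artemis-deficient replicate 3 holds the letters INV, unlike the others of its group. The titles of the Artemis- and ATM-deficient lines hold the letters CJ. The source labels explain none of these letters. No label says whether the samples of a group came from separate animals, so p values measure the spread between these samples.

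The RAG proteins cut DNA at antigen receptor genes and leave hairpin ends, which Artemis opens so that they can be joined. Without Artemis the hairpin ends stay unjoined. ATM, a kinase that is activated at double strand breaks, signals the presence of a break. ATM is known to phosphorylate p53, which controls cell cycle arrest and apoptosis genes, and to activate NF-kB, a family of transcription factors that are held in the cytoplasm by IkB proteins. Both compared groups carry the same block to joining, so the comparison asks which transcript levels differ with ATM present or absent in such cells.

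Levels are given as log2(signal + 6), where 6 is the rounded 25th percentile of the line signals, and differences are Artemis- and ATM-deficient minus Artemis-deficient lines, so a positive value means higher without ATM. A difference of a low signal is understated on this scale. Array medians lay between 26.8 and 27.7 signal units. The 2 technical arrays of a line differed by a spread of 8.31% and 6.82% at signals with a log10 of 3 or more. Correlations across probe sets, which are not independent, were 0.887 to 0.938 between the compared groups, 0.939 between the Artemis- and ATM-deficient lines and 0.916 to 0.947 among the Artemis-deficient ones. Artemis-deficient replicate 3 correlated better with the IkB-DN samples (0.939 to 0.944) than with Artemis-deficient replicates 1 and 2 (0.916 and 0.921). The IkB-DN samples correlated with each other at 0.976 to 0.983, near the 0.982 and 0.984 of technical arrays, and were therefore kept out of the test. Marker genes of the lineage were high in all 5 compared samples, with Cd79a, a signalling chain of the B cell receptor, at 12.60 and 12.53 in the Artemis- and ATM-deficient lines and 12.30, 11.96 and 12.42 in the Artemis-deficient lines. The compared lines also differ in sex-linked transcripts. Xist, which is expressed from an inactive X chromosome, was 11.71 and 11.41 in the Artemis- and ATM-deficient lines, and 11.90, 4.52 and 4.56 in the Artemis-deficient lines.

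Among the autosomes and the X chromosome, a single one stood apart in a single compared line. The 485 tested genes that the GRCm38.p6 gene table places on chromosome 10 lay at a median of 0.40 above their own median over the 14 line samples in Artemis- and ATM-deficient replicate 2, and at 0.40 on each of its 2 technical arrays. The same median was -0.01 in Artemis- and ATM-deficient replicate 1, and 0.00, -0.01 and -0.04 in the Artemis-deficient samples. On the other autosomes and the X chromosome, the medians of the 5 compared samples lay between -0.09 and 0.02. The Y chromosome, with 4 tested genes, was left out of these medians. Replicate 2 was the highest of the 14 line samples for 220 (45.4%) of the chromosome 10 genes. It was so for 541 (5.79%) of the genes on the other autosomes and the X chromosome. The cause was not tested, and the chromosome is named below beside each gene on it.

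**Figure D1:**
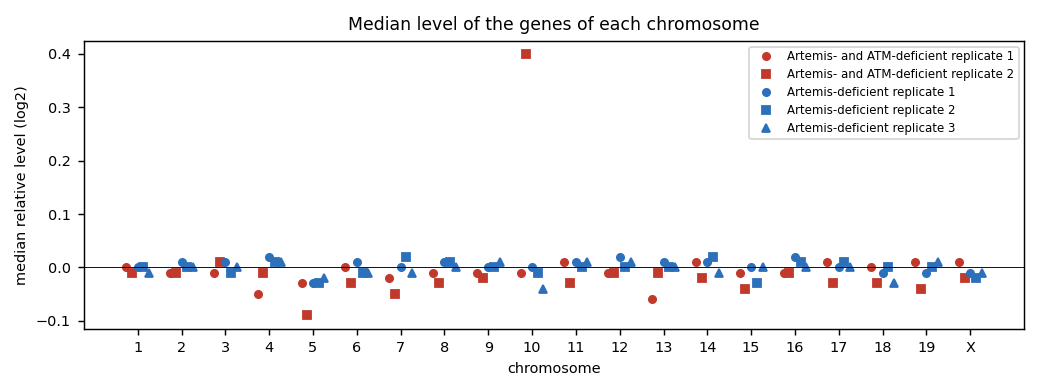
Median log2 level of the tested genes of each autosome and the X chromosome, relative to each gene's median over the 14 line samples. The 2 Artemis- and ATM-deficient samples are in red and the 3 Artemis-deficient samples in blue. Chromosome 10 lies at 0.40 in Artemis- and ATM-deficient replicate 2, and the other medians lie between -0.09 and 0.02.

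The level of Atm itself checks the genotype labels. The dimmer of its 2 probe sets was 5.44 and 5.48 in the Artemis- and ATM-deficient lines and 6.93, 6.42 and 6.93 in the Artemis-deficient lines. The groups did not overlap, and Atm fell by 1.30 ± 0.17 (SE, limma adjusted p = 0.0271). The brighter one was 6.82 and 6.83 against 7.44, 7.0 and 7.49, a difference of -0.48 ± 0.18 that was not called (adjusted p = 0.555). Wild type lines had 7.46, 7.41 and 7.42 on the dimmer probe set, replicate 3 included. The labels do not describe the Atm mutation, so whether either probe set lies in a deleted part is unknown. The call was kept in 1 of the 5 fits that left out a compared sample. Of the recombinase genes, Rag1 was 10.82 and 9.0 in the Artemis- and ATM-deficient lines and 11.45, 10.95 and 11.47 in the Artemis-deficient lines (difference -1.38 ± 0.46, adjusted p = 0.472). Rag2 was 7.49 and 5.99 against 8.50, 8.20 and 8.17 (difference -1.55 ± 0.92, adjusted p = 0.756). Neither gene was called, and in both the lower value of the Artemis- and ATM-deficient lines was that of replicate 2. The number of breaks in each line was not measured on these arrays. Dclre1c, the Artemis gene, was not analysed here.

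Few transcripts were called with these few samples, and most of those called were lower without ATM. Of 21894 probe sets tested, 25 were called at an adjusted p below 0.05 (0.114%), 23 of them lower and 2 higher in the Artemis- and ATM-deficient lines. The count was 3, all lower, without Artemis- and ATM-deficient replicate 2. It was 40, with 28 lower and 12 higher, when all arrays entered with the line as a random block. It was 62, with 47 lower and 15 higher, when the IkB-DN samples entered the fit, which assumes that they are separate lines. The groups did not overlap on any of the 25 probe sets. At an unadjusted p below 0.05 there were 1705. With each gene taken once, by its probe set with the highest mean level, 11 of 9877 genes were called (0.111%): 10 were lower (0.101%) and 1 was higher (0.0101%). At an unadjusted p below 0.05 the directions were less uneven, with 461 of these genes lower (4.67%) and 348 higher (3.52%). Counting any probe set, 14 genes were called, and 6 called probe sets name no single gene here. The median difference over all tested genes was -0.02.

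The called genes included 3 of the NF-kB system, all lower without ATM. Nfkbie, which encodes IkB epsilon, an inhibitor that is itself an NF-kB target, was 7.95 and 8.12 in the Artemis- and ATM-deficient lines and 10.28, 9.97 and 10.28 in the Artemis-deficient lines. It fell by 2.15 ± 0.21 (SE, adjusted p = 0.00454), which is 4.43-fold on this scale, and its other probe set fell by 1.92 ± 0.25 (adjusted p = 0.0271). All values without ATM lay below all values with it on both probe sets. Relb, the activating subunit of the noncanonical branch of the pathway, was 5.43 and 4.79 in the Artemis- and ATM-deficient lines and 7.29, 6.99 and 7.18 in the Artemis-deficient lines. It fell by 2.04 ± 0.21 (adjusted p = 0.00774), 4.11-fold. Nfkb2, which encodes the precursor of the usual partner of RelB, was called on 1 of its 2 probe sets and is named after its values were seen, because its brighter probe set was not called. On the called one it was 4.33 and 4.27 in the Artemis- and ATM-deficient lines and 7.71, 7.56 and 7.16 in the Artemis-deficient lines. It fell by 3.17 ± 0.30 (adjusted p = 0.00398), 9.01-fold. The brighter probe set differed by -0.89 ± 0.18 (adjusted p = 0.199), with 5.77 and 5.68 against 6.80, 6.26 and 6.78.

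Leaving out Artemis- and ATM-deficient replicate 2, so that its group kept 1 sample, ended the calls of Nfkbie (adjusted p = 0.0643), Nfkb2 (0.0643) and Relb (0.0666), and leaving out replicate 1 ended that of Nfkbie (0.0589). These 3 calls stood with any Artemis-deficient sample left out, on the probe sets with the smallest p. The other probe set of Nfkbie kept its call in 0 of the 5 fits that left out a compared sample. With all arrays entered and the line as a random block, Nfkb2 (adjusted p = 0.101) and Relb (0.0604) were not called, and Relb was not called with the compared groups alone (0.134).

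The promoters of the called NF-kB genes are shown because members of this family bind a known DNA motif, the kB site, whose consensus was searched here as its degenerate form of 10 bases on both strands. Sequences are from RefSeq (GRCm38.p6), 250 bases before to 50 bases after the start of the gene, 5′ to 3′, with matches in capitals. The table holds 3 promoters of Nfkb2, each with at least 1 match, and that at chr19:46304487-46304786 (plus strand) had 3 matches, starting 39, 38 and 11 bases before the gene start, the first 2 of which overlap. The promoter of Nfkbie at chr17:45555450-45555749 (plus strand) had 1 match, starting 106 bases before the gene start. Relb has no entry in the table.
Nfkb2: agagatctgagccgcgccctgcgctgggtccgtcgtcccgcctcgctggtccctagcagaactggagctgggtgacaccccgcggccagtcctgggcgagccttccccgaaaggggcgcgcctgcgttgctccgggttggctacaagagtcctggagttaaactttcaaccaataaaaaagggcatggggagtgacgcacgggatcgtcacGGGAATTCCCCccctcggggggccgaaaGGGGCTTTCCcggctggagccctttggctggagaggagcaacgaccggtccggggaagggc
Nfkbie: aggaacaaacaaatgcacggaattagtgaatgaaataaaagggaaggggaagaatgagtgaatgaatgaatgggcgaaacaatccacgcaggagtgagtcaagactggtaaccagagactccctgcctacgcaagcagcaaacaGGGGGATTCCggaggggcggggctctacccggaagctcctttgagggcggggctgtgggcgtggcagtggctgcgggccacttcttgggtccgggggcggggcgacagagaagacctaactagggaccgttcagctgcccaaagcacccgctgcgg
Such a match was in 8.46% of all 32851 promoters of the table. It was in at least 1 promoter of 13 of the 27 NF-kB list genes with an entry (48.1%), of 2 of the 10 genes called lower with an entry (20%) and of 12% of all tested genes with an entry. A match is a description of these letters and not a shown binding site.

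The levels of the other line groups place these differences. In the RAG-2-deficient lines, which lack the recombinase, Nfkbie was 8.01, 8.35 and 8.06, and in the IkB-DN lines, which lack Artemis and have ATM, it was 8.06, 7.84 and 7.97. The Artemis- and ATM-deficient values of 7.95 and 8.12 lie in the same range as both, while wild type lines, which can also open and join the hairpins, had 9.5, 8.97 and 8.81. Nfkb2 on its called probe set was 3.84, 4.6 and 4.47 in RAG-2-deficient, 4.38, 4.09 and 4.19 in IkB-DN and 6.83, 6.05 and 6.30 in wild type lines, in the same order. Relb ran differently at the low end. It was 5.91, 6.06 and 6.18 in RAG-2-deficient lines, above both Artemis- and ATM-deficient values, and 4.48, 4.62 and 4.70 in IkB-DN lines, below them. The positions of these groups are a description and were not tested.

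**Figure D2:**
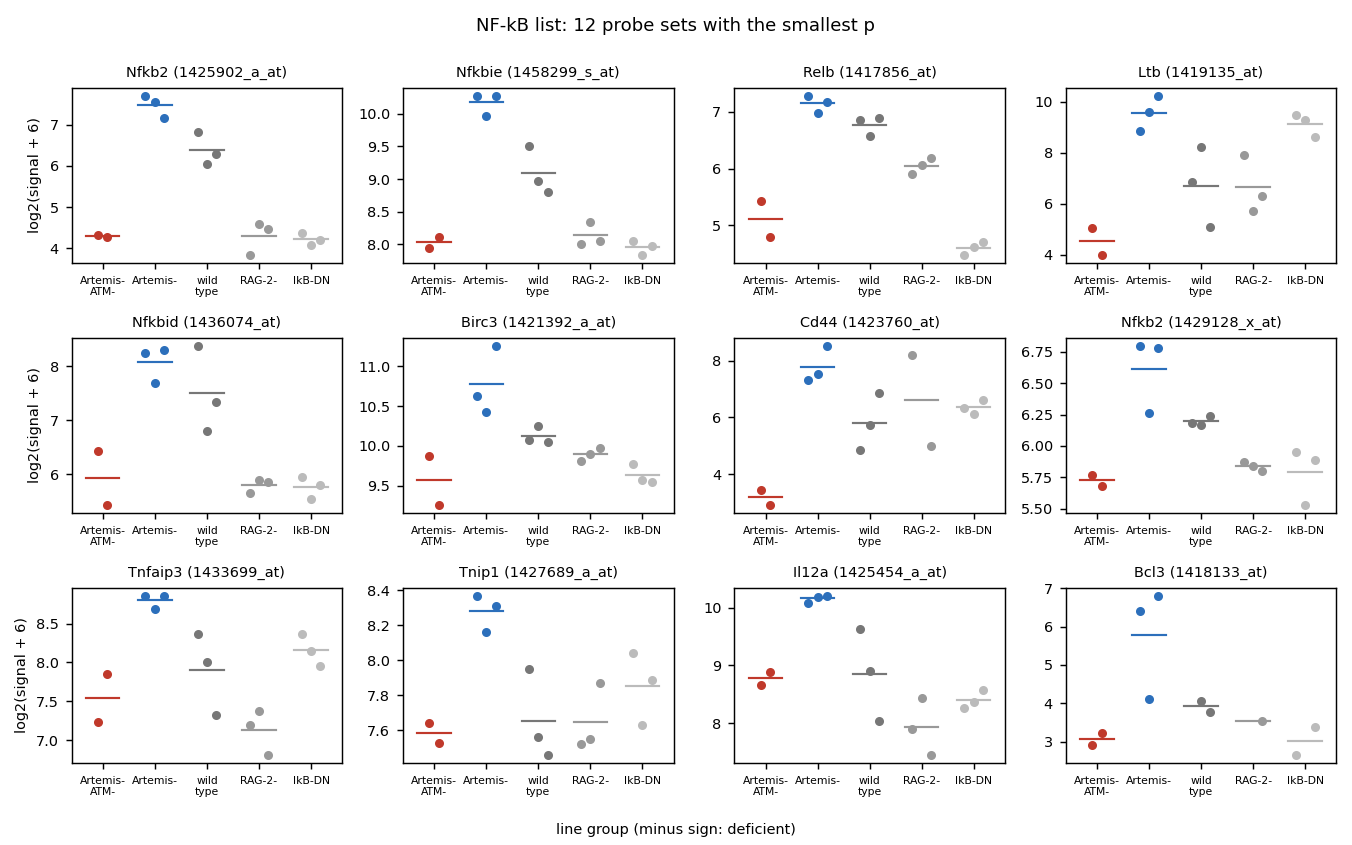
Levels, as log2(signal + 6), of 12 probe sets of the NF-kB list, in each sample of the 5 line groups (points) with the group mean (bar). They are those of the genes with the smallest p, each on its probe set with the highest mean level, and the called probe set of Nfkb2. All Artemis- and ATM-deficient samples (red) lie below all Artemis-deficient samples (blue) in every panel, which the choice by p favours.

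Of 47 listed NF-kB pathway genes and targets, 33 were tested; 2 were called, both lower (0.101% of all genes were called lower). Lower values without overlap were found in 20 of the 33, against 14.3% of all tested genes, and higher ones in 4, against 12.5%. Of the 20, Ccl3 had a value in only 1 Artemis-deficient sample. At an unadjusted p below 0.05, 18 were lower (background 4.67%) and 1 higher (background 3.52%). The list median was -0.49, against -0.02 for all genes. Among the 6 tested genes listed as inhibitors, a role that was not tested here, all were below 0, with a median of -1.36. The largest difference was that of Bcl3, with 2.92 and 3.22 against 6.41, 4.12 and 6.81 (difference -2.71 ± 0.79, adjusted p = 0.458). Nfkbid, a nuclear IkB protein, was 6.42 and 5.43 in the Artemis- and ATM-deficient lines and 8.25, 7.69 and 8.29 in the Artemis-deficient lines (difference -2.15 ± 0.43, adjusted p = 0.179). Nfkbia, the classical IkB alpha gene, differed by -0.43 to -0.88 on its 5 probe sets and was called on none; the representative one was 11.85 and 11.33 against 12.22, 12.01 and 12.26 (difference -0.57 ± 0.22, adjusted p = 0.554). Of the 6, 5 were lower without overlap (14.3% of all genes were) and 1, Nfkbie, was called. Nfkbiz overlapped, with 7.65 and 7.01 against 7.52, 7.72 and 8.02 (difference -0.42 ± 0.33, adjusted p = 0.829). Of the 4 subunits, 3 were below 0: besides Relb and Nfkb2, Rela differed by -0.44 ± 0.15 (adjusted p = 0.473), while Rel differed by 0.07 ± 0.40. Nfkbie, Relb and Nfkbia were named by rule, as were Ltb and Cd44 through other lists. The other members of this list are named after their values were seen.

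The 10 tested immune targets of NF-kB had a median of -1.01 and no call. Without overlap, 8 were lower, as were 14.3% of all genes. Among these 8, Ccl3 was low in all measured samples, at 2.76 and 3.05 against 3.25 and 2 empty cells (difference -0.34 ± 1.3). Ltb, which encodes lymphotoxin beta, was 5.05 and 4.00 in the Artemis- and ATM-deficient lines and 8.87, 9.61 and 10.24 in the Artemis-deficient lines (difference -5.05 ± 0.88, adjusted p = 0.104). Cd44, a receptor for hyaluronan, was 3.45 and 2.91 against 7.31, 7.53 and 8.53 (difference -4.61 ± 0.89, adjusted p = 0.179). These 2 differences were larger than those of the called NF-kB genes, but so was their error, and both genes also varied among lines of other groups: Ltb was 5.09 to 8.21 in wild type, and Cd44 was 8.21 and 4.99 in RAG-2-deficient lines with 1 value empty. In the IkB-DN lines Ltb was 9.49, 9.28 and 8.60, within or near the Artemis-deficient range, and Cd44 was 6.34, 6.11 and 6.60, between the compared groups. Il12a, a subunit of interleukin 12, was 8.67 and 8.88 against 10.09, 10.19 and 10.21 (difference -1.39 ± 0.40, adjusted p = 0.407). The 9 feedback and signalling genes had a median of -0.25. Birc3, an inhibitor of apoptosis, differed by -1.20 ± 0.24 (adjusted p = 0.179), and Tnfaip3, which encodes a deubiquitinase that restrains the pathway and lies on chromosome 10, by -1.26 ± 0.30 (adjusted p = 0.290). The 4 survival targets were all above 0, as were 4688 of all 9877 genes, with a median of 0.20. Bcl2l1, Cflar and Sod2 differed little, by 0.19 ± 0.15, 0.21 ± 0.20 and 0.10 ± 0.18. Gadd45b, also on chromosome 10, was 5.54 and 6.15 against 4.44, 5.05 and 4.43 (difference 1.20 ± 0.42, adjusted p = 0.512).

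Outside the NF-kB list, the called gene with the smallest adjusted p was Limd2, a LIM domain protein gene that was called lower on all 4 of its probe sets. On the brightest it was 11.03 and 10.88 in the Artemis- and ATM-deficient lines and 12.15, 12.18 and 12.23 in the Artemis-deficient lines. It fell by 1.23 ± 0.12 (SE, adjusted p = 0.00398), and the differences on the other 3 probe sets ran from -2.26 to -1.58. Of the 5 fits that left out a compared sample, that without Artemis- and ATM-deficient replicate 2 ended the call of the brightest probe set (difference -1.16). The other 3 probe sets kept their calls in 4, 1 and 0 of these 5 fits. On the brightest probe set, wild type, RAG-2-deficient and IkB-DN lines lay between the groups, from 11.51 to 11.99. Shisa5, which encodes a membrane protein of the endoplasmic reticulum known as a p53 target, was 9.70 and 8.80 in the Artemis- and ATM-deficient lines and 11.52, 11.58 and 12.30 in the Artemis-deficient lines. It fell by 2.55 ± 0.37 (adjusted p = 0.0460), and by 3.07 ± 0.43 on its other probe set (adjusted p = 0.0360).

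Cyba, a membrane subunit of the NADPH oxidases, was 8.43 and 8.31 in the Artemis- and ATM-deficient lines and 10.17, 10.02 and 10.63 in the Artemis-deficient lines. It fell by 1.90 ± 0.26 (adjusted p = 0.0328). Sdhaf1, an assembly factor of succinate dehydrogenase, was 7.06 and 7.01 against 8.21, 8.16 and 8.50, and fell by 1.26 ± 0.16 (adjusted p = 0.0271). As with Nfkbie, the RAG-2-deficient and IkB-DN lines had low values of both genes, from 8.37 to 8.97 for Cyba and from 6.95 to 7.23 for Sdhaf1. Vars, the valyl-tRNA synthetase, was 7.65 and 7.30 against 9.11, 8.92 and 9.04 and fell by 1.55 ± 0.20 (adjusted p = 0.0271).

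A further set of genes was called from low levels without ATM. Pepd, the peptidase that splits dipeptides ending in proline, was 2.66 and 2.64 in the Artemis- and ATM-deficient lines, close to the value of a signal of 0, and 7.18, 6.42 and 6.53 in the Artemis-deficient lines. It fell by 4.06 ± 0.48 (adjusted p = 0.0379). In the fit, 2 RAG-2-deficient cells were empty, and the other was 6.21. With empty cells set to 0, Pepd was not called (adjusted p = 0.285). Zfp760, a zinc finger gene, was 2.97 and 5.24 against 8.52, 8.46 and 7.71 and fell by 4.13 ± 0.53 (adjusted p = 0.0271). Zbtb42, a zinc finger repressor gene, was 3.33 and 4.31 against 6.97, 7.37 and 6.07 and fell by 2.98 ± 0.43 (adjusted p = 0.0410). Both were at 5.22 or more in every wild type, RAG-2-deficient and IkB-DN sample. Apobec3, which encodes a cytidine deaminase that restricts retroviruses, was the gene that rose on its brightest probe set. It was 8.21 and 7.87 in the Artemis- and ATM-deficient lines and 6.05, 5.90 and 6.14 in the Artemis-deficient lines, higher by 2.01 ± 0.27 (adjusted p = 0.0333), and no sample of the other groups exceeded 6.63. Lsm8, a subunit of the ring that binds RNA in the spliceosome and is named after its values were seen, rose on 1 of 2 probe sets by 1.95 ± 0.27 (adjusted p = 0.0359), with 5.33 and 5.45 against 3.39, 3.36 and 3.58. On that probe set the RAG-2-deficient lines were also high, at 5.95, 5.97 and 5.92. Its brighter probe set differed by 0.29 ± 0.17 (adjusted p = 0.768). The calls of Cyba, Sdhaf1, Vars, Apobec3, Shisa5, Pepd and Lsm8 ended with any of the 5 compared samples left out. That of Zbtb42 ended in 4 of these 5 fits, without Artemis-deficient replicate 1 or 2 or either Artemis- and ATM-deficient replicate (adjusted p 0.111 to 0.213), and with the random block (0.118). That of Zfp760 ended without Artemis-deficient replicate 1 (0.0760) or 2 (0.0955). Strain background is not given in the labels, and differences of the probed sequence between lines were not tested.

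**Figure D3:**
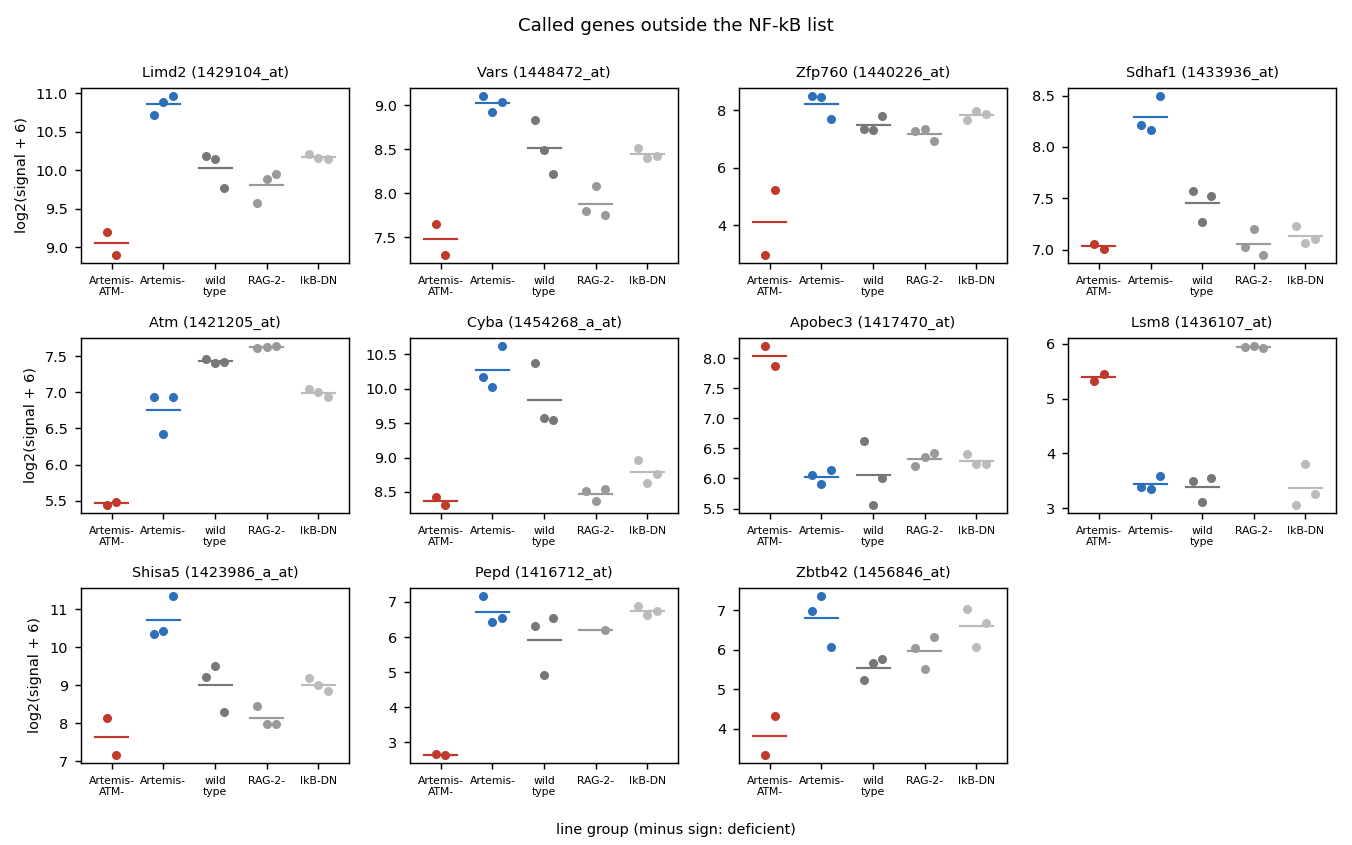
Levels, as log2(signal + 6), of the 11 called genes outside the NF-kB list, each on its called probe set with the smallest adjusted p, in each sample of the 5 line groups (points) with the group mean (bar). Apobec3 and Lsm8 are higher, and the other genes lower, in the Artemis- and ATM-deficient samples (red) than in the Artemis-deficient samples (blue).

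Of the called probe sets without a gene name, 1455869_at had the largest fall of all. It was 4.80 and 4.37 in the Artemis- and ATM-deficient lines and 13.03, 12.69 and 13.13 in the Artemis-deficient lines, and fell by 8.36 ± 0.37 (adjusted p = 4.56e-05). Wild type and IkB-DN samples were at 12.43 to 13.25, while the RAG-2-deficient lines had 4.00 and 2.73 with 1 empty cell. Probe set 1452077_at was 3.09 and 2.97 in the Artemis- and ATM-deficient lines, and empty, 9.44 and 9.42 in the Artemis-deficient lines (difference -6.40 ± 0.18, adjusted p = 1.15e-05). Its call rests on the empty cell of Artemis-deficient replicate 1: with empty cells set to 0 the adjusted p was 0.562. In the compared samples Eif2s3y, a Y-linked gene, was also low or empty in the same samples, with 3.19 and 2.87 against an empty cell, 10.59 and 10.68. The 2 differed elsewhere: RAG-2-deficient replicate 3 was 9.12 on the unnamed probe set and 3.12 for Eif2s3y. Uty, another Y-linked gene, was 2.69 and 3.13 in the Artemis- and ATM-deficient lines and 3.20, 7.80 and 7.65 in the Artemis-deficient lines. It was high in RAG-2-deficient replicate 3 (7.63), like the unnamed probe set. Whether that probe set is Y-linked was not tested.

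The genes of mitosis were higher in value without ATM, and none was called. Of 27 tested G2 and M phase genes, 25 were higher without overlap (12.5% of all genes were) and 26 were above 0, with a median of 1.5. None passed an unadjusted p below 0.05. Cdc25b, a phosphatase that activates the mitotic kinase, was 9.78 and 9.5 in the Artemis- and ATM-deficient lines and 8.80, 8.45 and 7.12 in the Artemis-deficient lines (difference 1.52 ± 0.70, adjusted p = 0.653). Kif20a, a kinesin of cytokinesis, was 6.52 and 6.98 against 5.85, 5.28 and 4.00 (difference 1.71 ± 0.88, adjusted p = 0.697). The list mean in each sample, relative to the 14 line samples, was 0.92 and 1.07 in the Artemis- and ATM-deficient lines and 0.25, -0.13 and -1.28 in the Artemis-deficient lines. It varied as widely inside the other groups, from -1.27 to 2.45 among wild type lines and from -1.13 to 0.97 among RAG-2-deficient lines, and that spread enters the error of the test. The list median was 1.01 without Artemis-deficient replicate 3. The median of 28 S phase genes was 0.14, and 9 were higher and 3 lower without overlap (12.5% and 14.3% of all genes). Cdkn2c, an inhibitor of the kinases bound by D cyclins, was 9.70 and 10.21 against 9.10, 8.62 and 7.42 (difference 1.58 ± 0.54, adjusted p = 0.484). Ccnd3, a D-type cyclin of pre-B cells, was 11.13 and 11.16 against 9.80, 10.35 and 10.11 (difference 1.06 ± 0.40, adjusted p = 0.546). On its other probe sets Ccnd3 differed by 0.21 ± 0.56 with overlap (adjusted p = 0.969) and by 1.11 ± 0.38 without (0.486). In bulk samples, a larger share of cycling cells and more RNA per cell cannot be told apart.

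The p53 targets split each group. None of 32 was called, 26 were below 0 and the median was -0.68. The groups did not overlap in 4 lower genes (14.3% of all genes were lower in this way) and 1 higher gene (12.5% of all genes), and 4 were lower at an unadjusted p below 0.05 (4.67% of all genes). Their mean relative level was -0.62 and 0.19 in the Artemis- and ATM-deficient lines, and 1.03, 1.13 and -0.36 in the Artemis-deficient lines. Artemis-deficient replicates 1 and 2 were thus the highest of all 14 samples, while replicate 3 lay between the ATM-deficient lines. Sesn2, a stress-induced regulator of growth signalling, was 5.80 and 5.19 in the Artemis- and ATM-deficient lines and 7.72, 8.03 and 6.15 in the Artemis-deficient lines (difference -1.81 ± 0.49, adjusted p = 0.356). On its other probe set the groups overlapped (difference -0.63 ± 0.43, adjusted p = 0.798). Plk2, a polo-like kinase, was 4.02 and 3.50 against 6.93, 8.55 and an empty cell (difference -3.98 ± 1.39, adjusted p = 0.524). Zmat3 and Cdkn1a, both well-known p53 targets and named after their values were seen, differed widely inside both groups. Zmat3 was 4.20 and 10.20 in the Artemis- and ATM-deficient lines and 11.20, 11.41 and 9.35 in the Artemis-deficient lines (difference -3.45 ± 1.86, adjusted p = 0.721). Cdkn1a, a cell cycle inhibitor, was 6.12 and 10.09 against 10.66, 10.93 and 7.45 (difference -1.57 ± 1.55, adjusted p = 0.880). The list median was -1.03 without Artemis-deficient replicate 3 and -0.37 without Artemis- and ATM-deficient replicate 1.

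**Figure D4:**
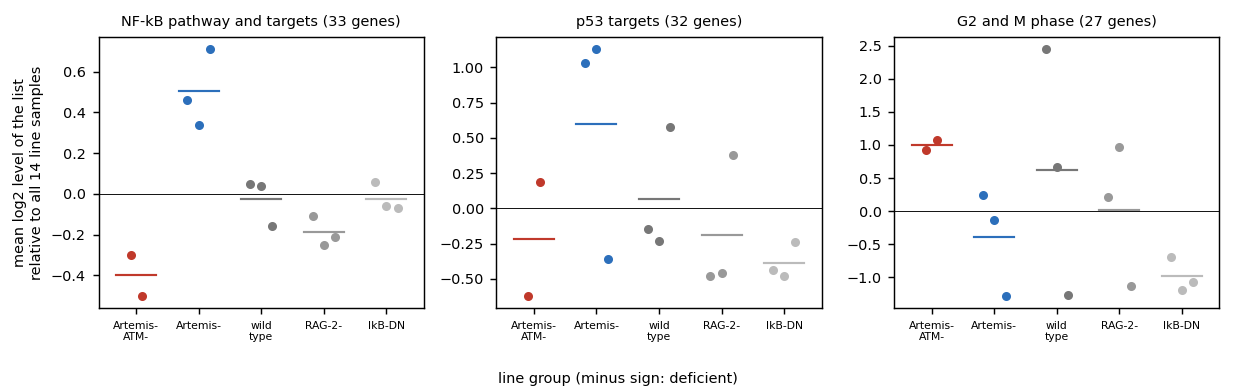
Mean log2 level of the NF-kB, p53 and G2 and M phase lists in each line sample, relative to the 14 line samples, with the group mean as a bar. NF-kB means are -0.30 and -0.50 in Artemis- and ATM-deficient lines (red) against 0.46, 0.34 and 0.71 in Artemis-deficient lines (blue), while the p53 means of the groups overlap.

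The 16 tested genes of the BCL-2 family and PIM kinases had a median of -0.11 and no call, and 2 were lower at an unadjusted p below 0.05 (4.67% of all genes). Pim2, a survival kinase, was 6.81 and 5.22 in the Artemis- and ATM-deficient lines and 9.34, 9.98 and 10.62 in the Artemis-deficient lines (difference -3.97 ± 0.67, adjusted p = 0.0979). Among 22 homing and adhesion genes, none was called, 8 were lower and none higher without overlap (14.3% and 12.5% of all genes), and the median was -0.19. Swap70, which acts on the actin skeleton of moving B cells, was 7.46 and 6.92 against 8.46, 8.77 and 8.64 (difference -1.43 ± 0.26, adjusted p = 0.124). Pim2, Swap70, Ltb, Cd44 and Tnfrsf19 were called when the IkB-DN samples entered the fit, with adjusted p of 0.0235, 0.0298, 0.0262, 0.0446 and 0.0392. That fit counts the IkB-DN samples as separate lines, although they correlated with each other nearly as technical arrays do. If they are not separate, the spread is understated and the calls of that fit do not stand. Of the fits without IkB-DN samples, that with the line as a random block called Pim2 (adjusted p = 0.0201), Swap70 (0.0392) and Ltb (0.0392). The fit of the compared groups alone called Cd44 (0.047). Tnfrsf19 was called only with the IkB-DN samples. The 23 cytokine and TNF family genes had a median of -0.26 and no call. Tnfrsf19, a receptor of the TNF family, was 6.16 and 6.29 against 8.37, 8.39 and 7.76 (difference -1.95 ± 0.38, adjusted p = 0.171). Jun, a subunit of the AP-1 factor, was 7.18 and 6.95 against 9.64, 8.83 and 9.60 (difference -2.30 ± 0.53, adjusted p = 0.253).

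Most other lists had medians near that of all genes and no call. The 22 genes of break signalling had a median of -0.15, with Atr, the kinase related to ATM, at 7.01 and 7.79 in the Artemis- and ATM-deficient lines and 8.24, 8.19 and 7.99 in the Artemis-deficient lines (difference -0.74 ± 0.24, adjusted p = 0.465). The medians were -0.06 for 11 end joining genes and -0.14 for 9 homologous recombination genes. Parp1, which binds broken DNA, differed by -1.62 to -1.87 on its 4 probe sets without a call. The brightest was 9.46 and 8.44 against 10.14, 11.12 and 11.11 (adjusted p = 0.336). Xrcc1, also of the end joining list, went the other way, at 8.19 and 8.63 against 7.52, 7.22 and 6.93 (difference 1.19 ± 0.40, adjusted p = 0.472). B lineage factors and pre-B receptor genes (28) had a median of -0.14, the interferon response (15) of 0.19 and the unfolded protein response (19) of -0.04. In antigen presentation (16 genes, median -0.10), the smallest p was that of H2-Ab1, a class II chain, at 8.46 and 6.56 against 5.72, 4.29 and 5.18 (difference 2.44 ± 0.65, adjusted p = 0.337). It was the only 1 of 5 tested class II genes above 0. The other 4 were below 0, and the class II median was -0.40. Notch1, a receptor of early lymphoid cells, was 7.73 and 6.61 against 8.57, 8.73 and 8.75 (difference -1.51 ± 0.30, adjusted p = 0.171).

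Markers of other cell types were mostly low or varied within groups. Of 6 tested neutrophil and monocyte markers, none was apart in either direction; their mean relative level was 0.64 and -0.59 in the Artemis- and ATM-deficient lines and -0.74, -0.45 and 0.06 in the Artemis-deficient lines. Itgam, an integrin of myeloid cells, was 9.62 and 7.04 against 5.81, 5.77 and 7.85 (difference 1.85 ± 0.94, adjusted p = 0.689). Of 7 plasma cell markers none was apart, 4 were below 0 and the median was -0.07. Sdc1, a surface proteoglycan of plasma cells, was 8.02 and 3.81 against 5.78, 7.55 and 9.21 (difference -1.60 ± 1.33, adjusted p = 0.846). Prdm1, a factor of plasma cells that lies on chromosome 10, was 9.34 and 6.80 against 5.54, 4.87 and 7.32 (difference 2.16 ± 1.02, adjusted p = 0.665). Artemis- and ATM-deficient replicate 1 was the higher of its group in Itgam, Sdc1 and Prdm1. Of 8 mature B cell markers 6 were below 0, 2 were lower and 1 higher without overlap (14.3% and 12.5% of all genes), and the median was -0.57. Those with the smallest p, the membrane proteins Cd52 and Cd55, differed by -1.38 ± 0.35 (adjusted p = 0.323) and -1.46 ± 0.37 (adjusted p = 0.324). The filter on low values passed none of 7 listed erythroid markers, 2 of 14 of T and NK cells and 1 of 9 of dendritic cells. The part of these lists in the results was not tested.

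**Figure D5:**
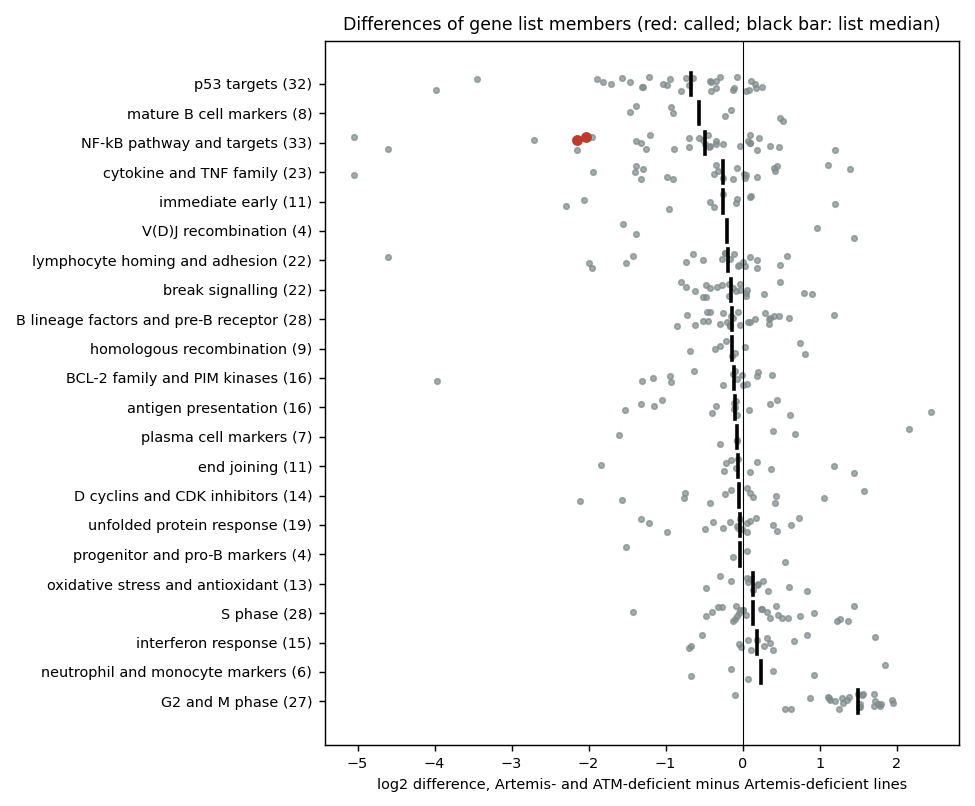
Log2 difference, Artemis- and ATM-deficient minus Artemis-deficient lines, of each tested member (points) of the lists with 4 or more tested genes other than sex-linked transcripts, with the number tested in parentheses, called members in red and the list median as a black bar. The medians run from -0.68 for p53 targets to 1.5 for G2 and M phase genes, and the red points are Nfkbie and Relb.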

How the data were processed

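Mouse pre-B line RNA was hybridised to Affymetrix mouse arrays, read with GeneChip Operating Software per the labels. The deposited values are log10 signals, with the base inferred from the values. How the authors summarised and scaled them is not given in the sources. Empty cells (14.8% of the line cells) were left empty. Here the values were returned to signals and taken to log2(signal + 6), and the technical arrays of a line were averaged. A probe set was kept when at least 2 of the 14 line samples reached the median signal of their array (21936 kept, 21894 tested, 759 of these with an empty cell).

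Limma 3.58.1 in R 4.3.3 was fitted (lmFit, eBayes with an intensity trend) to 11 samples of 4 groups (Artemis- and ATM-deficient, Artemis-deficient, wild type and RAG-2-deficient lines), which left 7 degrees of freedom with 2.83 added by the prior. Two-sided p values were corrected across all tested probe sets (Benjamini-Hochberg). Precision is limited by how many arrays there are.

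Of the probe sets, 34294 name 1 gene, 916 several and 8990 none; a gene is represented by its probe set with the highest mean level. Named genes are the 25 largest rises and falls among non-overlapping called genes, up to 6 called members of each of 26 lists (or up to 2 members with the smallest p as values), and the targeted genes. The lists and the comparison were chosen with earlier results of these data known, and lists are described by counts and medians without a test. The fit was tested on simulated data. The alternatives were the pseudocount, the filter, the samples in the fit, the technical arrays, the scaling, the eBayes settings, empty cells and each replicate left out. Plots used Python 3.11.15 (matplotlib 3.10.9). All columns of the deposited table belong to samples of the series.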

Additional observations from a re-analysis of the deposited data

How the results depend on the processing

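The number of called probe sets was 25. It was 62 with the IkB-DN samples added to the fit, which keeps all 25 and assumes that those samples are separate lines, and 40 with all arrays entered and the line as a random block (block correlation 0.782), of which 20 were shared and 12 were higher. It lay between 20 and 27 under the other pseudocounts, filters, scalings, eBayes settings, treatments of empty cells and single technical arrays, and with the compared groups alone (22, of which 9 were shared). With each sample left out in turn it ranged from 3 to 32: 18, 12 and 18 without Artemis-deficient replicates 1, 2 and 3, 14 and 3 without Artemis- and ATM-deficient replicates 1 and 2, where the lone sample is assumed to vary like the other groups, 18, 24 and 32 without wild type replicates 1, 2 and 3 (21 lower and 11 higher without replicate 3), and 10, 10 and 11 without RAG-2-deficient replicates 1, 2 and 3. The runs without wild type or RAG-2-deficient samples and with empty cells set to 0 were chosen after seeing the data. Cyba, Sdhaf1, Vars, Apobec3, Shisa5, Pepd and Lsm8 lost their call with any of the 5 compared samples left out. The NF-kB list median lay between -0.58 and -0.42, that of p53 targets between -1.03 and -0.37 and that of G2 and M phase genes between 1.01 and 1.82 under all alternatives. Differences turned for Brca2 (0.03 without Artemis- and ATM-deficient replicate 1, -0.61 without replicate 2) and Sdc1 (-3.71 without replicate 1, 0.51 without replicate 2), neither of them called, and the cause was not tested. No paired analysis was possible because replicate numbers only name the samples. Signals near background limit what can be said of Pepd, Zbtb42, Zfp760 and Lsm8. The call of Pepd was lost with a pseudocount of 27. Those of Zfp760 (adjusted p = 0.0846) and Lsm8 (0.0779) were lost with a pseudocount of 1. That of Zbtb42 was lost with either, at 0.0688 with 27 and 0.059 with 1. The brighter probe set of Shisa5, at higher signals, also lost its call with a pseudocount of 1 (0.0545).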

Other observations

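Differences outside the lists, chosen after their values were seen, include genes that were higher in value without ATM. Kitl, which encodes stem cell factor and lies on chromosome 10, was 6.08 and 6.18 in the Artemis- and ATM-deficient lines and 3.59, 3.22 and 2.77 in the Artemis-deficient lines (difference 2.93 ± 0.44, adjusted p = 0.0517), and no sample of the other line groups exceeded 3.22. Mpzl2, a cell adhesion protein of epithelia and thymus, was 10.56 and 9.23 against 4.00, 3.16 and 3.58 (difference 6.31 ± 1.01, adjusted p = 0.0773), and it was 5.27 to 9.17 in wild type and 6.89 to 8.83 in RAG-2-deficient lines. Neither was called.

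Chromosome medians also stood apart in other lines. Chromosome 5 lay at 0.41 in RAG-2-deficient replicate 1 and at 0.36 in wild type replicate 2, and chromosome 18 at 0.35 in wild type replicate 2. In the comparison, 68 of the 485 chromosome 10 genes were higher and 7 lower at an unadjusted p below 0.05. Without that chromosome, 280 of 9392 genes were higher (2.98%).

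The 461 genes lower without ATM at an unadjusted p below 0.05 can be placed by the other groups. The mean of the RAG-2-deficient lines was nearer to the Artemis- and ATM-deficient mean for 49.7% of those measured, the mean of the IkB-DN lines for 27.2% and that of wild type lines for 34.1%, against 47.4%, 39.6% and 40.2% of all genes with a difference below 0. For the 23 called lower probe sets the shares were 60.9%, 39.1% and 26.1%. These shares are descriptions, since the compared groups chose the genes.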
